A study of Ramazzottius varieornatus with 48 samples.

Results

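g6328 is a gene of the tardigrade *Ramazzottius varieornatus* whose product matches human apolipoprotein D in the Swiss-Prot annotation given with the study. It was taken by its identifier, and it is 1 of 13920 genes in the table, with 1 isoform, g6328.t1, among 14532 transcripts. In the Rvar_4.0 assembly the gene has the locus tag RvY_04462 and lies on the minus strand of scaffold BDGG01000002, from 3053205 to 3054138, a span of 934 bp. The nearest annotated genes are RvY_04461, 927 bp away on the side of the lower coordinates, and RvY_04463, 5512 bp away on the other side. The study lists g6328 among transcripts raised after exposure in these same libraries, so the tests below are not independent of that choice.

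Hydrated animals of the strain YOKOZUNA-1 were exposed to ultraviolet C (UVC), a short-wavelength light that damages DNA and causes oxidative stress, and whole bodies were collected afterwards for poly(A) RNA sequencing. The Short course held animals taken every hour from 1 to 6 h after exposure, then at 9 h and at 12 h, and non-exposed animals of the same strain, 27 libraries in 9 groups. The Long course held animals at 12, 18 and 24 h, at 36 and 48 h and finally at 72 h, and its own non-exposed animals, 21 libraries in 7 groups. Each group had 3 libraries, described by the study as biological replicates, each made from 30 pooled animals. The methods can be read as exposing a larger lot of animals per replicate and drawing 30 from it at each sampling. Libraries of the same number may then share a lot, which the labels do not state. The study prepared more replicates and chose 3 samples of each condition by RNA integrity. Equal numbers therefore need not mean a shared lot. Non-exposed animals were sampled only at the start, so exposure and time on the new plate cannot be told apart. *Chlorella vulgaris*, the food alga, was given to the Long plates at 12 h, and the later Long levels cannot be told apart from the effect of feeding.

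Apolipoprotein D is a lipocalin, a small secreted barrel-shaped protein that carries hydrophobic ligands. The human protein binds arachidonic acid and steroid hormones such as progesterone and differs in fold from most other apolipoproteins. In mammals it is induced by oxidative stress. In *Drosophila melanogaster* its relatives Glial Lazarillo and Neural Lazarillo act in stress resistance and in lipid storage. Its function in tardigrades is not given in the annotation used here.

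Levels are in TPM, a length-corrected share of each library, so a higher value can come from more of this RNA or from less of others, and in whole animals more cells of a type cannot be told apart from more RNA per cell. The values keep no sequencing depth. As a stand-in, 8 to 792 of 7238 abundant transcripts (mean of at least 20 TPM) were listed at 0 in a library, with a median of 31.5. Long 24 h replicate 1 stood furthest apart with 792, and Short 4 h replicate 3, Short 5 h replicate 2, Long 12 h replicate 2 and Long non-exposed replicate 2 followed with 386, 297, 257 and 255; these 5 are the libraries set aside where results are given without those that list most transcripts at 0. Muscle markers (myosin heavy chain, tropomyosin and troponin T) and the yolk protein transcript were present in whole-body RNA of every group.

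g6328 was an abundant transcript in all 48 libraries. Its level lay between 393 and 2888 TPM with a median of 1572 TPM, a 7.35-fold range, and it ranked between 26 and 368 of 14532. At its highest it took 0.289% of the total. Its coefficient of variation over the libraries was 39.4%, against a median of 34.4% for the 1892 transcripts averaging at least 100 TPM.

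In the Short course the level was about 2.10-fold that of non-exposed animals 1 h after exposure, and the group means then stayed between 1.41-fold and 1.88-fold. At 1 h the libraries had 2276, 1911 and 2426 TPM, against 1131, 958 and 1063 TPM in Short non-exposed animals. All 3 exposed libraries lay above all 3 non-exposed ones, with a wide gap. At 2 h the level was 2181, 1303 and 1773 TPM and at 3 h it was 2072, 2236 and 1616 TPM. Both groups stayed clear of the non-exposed libraries.

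At 4 h the 3 libraries had 2050, 1083 and 1475 TPM, and at 5 h they had 1857, 1158 and 1816 TPM. One library at 4 h fell within the non-exposed range, and one at 5 h lay just above it. The level was 2658, 1529 and 1684 TPM at 6 h, 1298, 1394 and 1738 TPM at 9 h, and 1782, 1096 and 2175 TPM at 12 h. In all, 22 of 24 exposed Short libraries exceeded the highest non-exposed one and none lay below the lowest. Without the libraries with most transcripts at 0 the count was 20 of 22. These counts carry no test. All exposed libraries were set against the same 3 non-exposed ones and may share lots of animals. The library numbered 2 was the lowest of its group in 6 of 8 exposed groups.

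**Figure D1:**
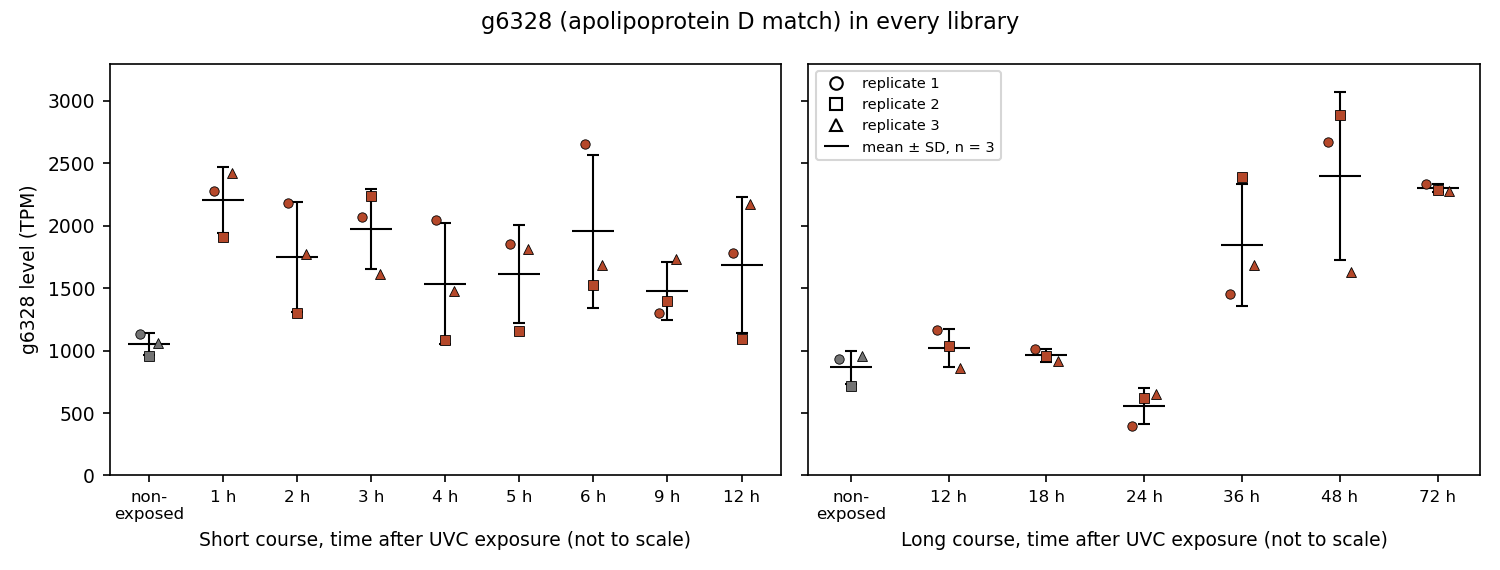
Level of g6328 in TPM (vertical axis) in each of the 48 libraries by group, with the Short course on the left panel and the Long course on the right; marker shapes give the replicate number, grey marks non-exposed animals, and bars show the mean ± SD of 3 libraries. The Short exposed groups average between 1476 and 2204 TPM, above 1051 TPM in non-exposed animals, and the Long course drops to 555 TPM at 24 h before standing at 1845 to 2396 TPM from 36 to 72 h.

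None of the 8 Short comparisons passed the test. The fits used limma on log2(TPM + 1) with Benjamini-Hochberg adjustment over 12088 transcripts, and a transcript was called at an adjusted p below 0.05 with a log2 fold change beyond 1 in either direction. At 1 h the mean was 2204 ± 264 TPM in exposed and 1051 ± 87.2 TPM in non-exposed animals (SD, n = 3 each). The log2 fold change was 1.06 (SE 0.28, limma adjusted p = 0.0520), where 1.16% of all transcripts were called. The median transcript had a log2 fold change of -0.28 at 1 h, so g6328 stood further above the bulk of transcripts than above 0, and 93.8% of transcripts had a smaller value. After scaling each library to its median deviation, the 1 h log2 fold change was 1.36 and passed (limma adjusted p = 0.0298), while after quantile normalization it was 0.81 and did not (limma adjusted p = 0.197). Over all other settings run the adjusted p lay between 0.0230 and 0.197 in limma.

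At 2 and 3 h the log2 fold changes were 0.71 and 0.90 (SE 0.28 each; limma adjusted p = 0.284 and 0.128), where 0.778% of transcripts were called at each time. They were 0.50 at 4 h, 0.59 at 5 h and 0.86 at 6 h (limma adjusted p = 0.364, 0.266 and 0.101), with 1.82%, 3.04% and 2.49% of transcripts called. At 9 and 12 h they were 0.48 and 0.63 (limma adjusted p = 0.417 and 0.265), with 3.15% and 2.9% called. The upper bounds of all 7 of these 95% intervals lay above 1, the highest of them 1.47 at 3 h. The step between 1 and 2 h was also within the spread, at 2181, 1303 and 1773 TPM at 2 h against 2276, 1911 and 2426 TPM at 1 h (log2 fold change -0.36, 95% interval -0.93 to 0.22, limma adjusted p = 0.770; 0.0579% of transcripts called). A moderated F test over the 9 Short groups gave F = 2.47 (limma adjusted p = 0.169), where 9.7% of transcripts were called.

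In the Long course g6328 did not pass the test at 12, 18 or 24 h, with its lowest values at 24 h, and was called higher at 36, 48 and 72 h. At 12 h the libraries had 1167, 1034 and 861 TPM and at 18 h they had 1016, 955 and 916 TPM, against 929, 716 and 955 TPM in Long non-exposed animals. Both exposed groups overlapped the non-exposed libraries. The log2 fold changes were 0.24 at 12 h and 0.16 at 18 h (SE 0.25 each; limma adjusted p = 0.724 and 0.816), with 95% intervals of -0.29 to 0.76 and -0.37 to 0.69, where 0.811% and 0.645% of transcripts were called.

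At 24 h the level was 393, 621 and 652 TPM, against 929, 716 and 955 TPM in Long non-exposed animals. All 3 libraries lay below every non-exposed library, and they were the 3 lowest of the 48. The log2 fold change was -0.67 (SE 0.25) and did not pass (limma adjusted p = 0.295), where 0.19% of transcripts were called. The lowest value came from replicate 1, the library with 792 abundant transcripts at 0, and without it the log2 fold change was -0.43 (limma adjusted p = 0.482).

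From 36 h onward every library lay above every non-exposed one. At 36 h the level was 1452, 2394 and 1690 TPM, a mean of 1845 ± 490 TPM against 867 ± 131 TPM in non-exposed animals (SD, n = 3 each; log2 fold change 1.07, SE 0.25, limma adjusted p = 0.0434; 1.39% of transcripts called). This call was lost whichever of the 6 libraries was left out, with limma adjusted p between 0.0594 and 0.203 and log2 fold changes between 0.86 and 1.22. At 48 h the libraries had 2670, 2888 and 1632 TPM, the widest spread of the course. The log2 fold change was 1.43 (SE 0.25, limma adjusted p = 0.00649), where 5.12% of transcripts were called.

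At 72 h the level was 2336, 2290 and 2277 TPM, against 929, 716 and 955 TPM in Long non-exposed animals. The 3 libraries lay closer together than those of any other group, and ranked 47, 39 and 37 in their libraries. The mean was 2301 ± 31.0 TPM in exposed and 867 ± 131 TPM in non-exposed animals (SD, n = 3 each). The log2 fold change was 1.42 (SE 0.25, limma adjusted p = 0.00287), where 10.6% of transcripts were called. The median transcript was at -0.14 at this time. Both late calls held when any 1 of their 6 libraries was omitted (limma adjusted p at most 0.0369 at 48 h and 0.0188 at 72 h).

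Between 24 and 36 h the mean of g6328 rose to 1845 TPM at 36 h, against 555 TPM at 24 h. The libraries had 1452, 2394 and 1690 TPM at 36 h, against 393, 621 and 652 TPM at 24 h, with no overlap. The log2 fold change was 1.73 (SE 0.25, limma adjusted p = 0.0107), one of only 14 transcripts called between these times, 0.116% of those tested. It held without any 1 of its libraries, the values running from 1.50 to 1.89, and was 1.50 without replicate 1 at 24 h. With only these 2 groups in the fit the call was lost (limma adjusted p = 0.276). From 36 to 72 h no further change passed: 2336, 2290 and 2277 TPM at 72 h overlapped 1452, 2394 and 1690 TPM at 36 h (log2 fold change 0.35, 95% interval -0.18 to 0.88, limma adjusted p = 0.753). In that comparison limma called 0 transcripts (0%), with 1318 at an unadjusted p below 0.05. Over the 7 Long groups the moderated F was 20.5 (limma adjusted p = 0.00113), where 10.4% of transcripts were called.

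**Figure D2:**
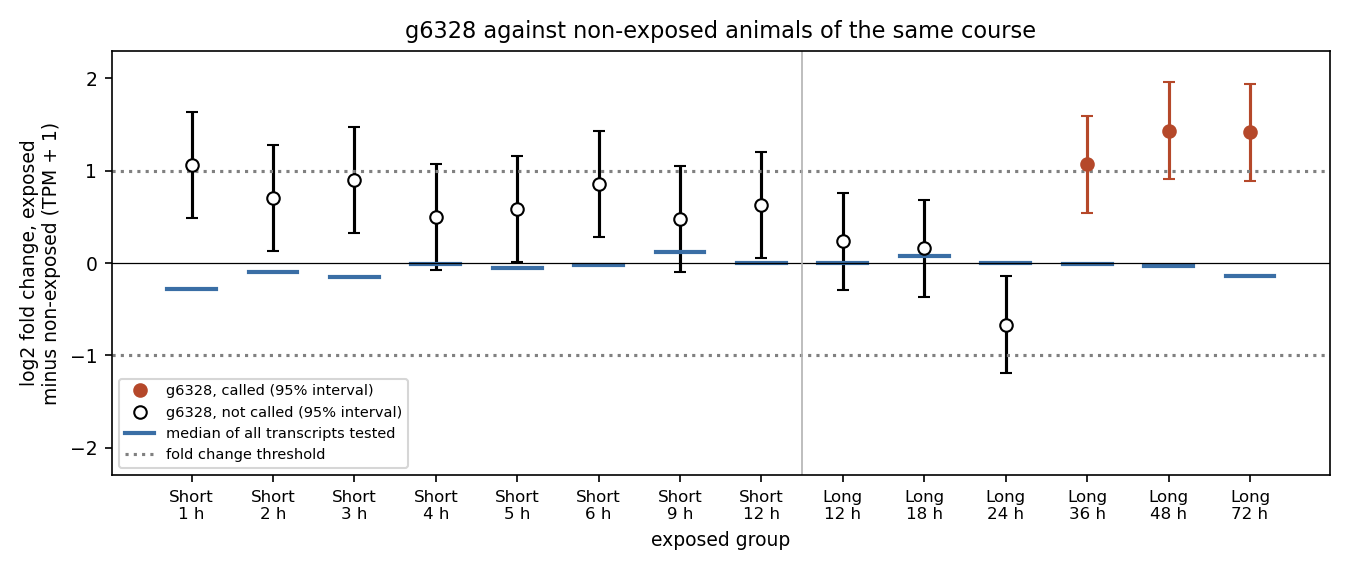
Log2 fold change of g6328 on the TPM + 1 scale (vertical axis), exposed minus non-exposed animals of the same course, for the 14 exposed groups; points are limma estimates with 95% intervals, filled where called, blue bars give the median of all transcripts tested, and dotted lines mark the fold change threshold. All 8 Short estimates are positive, from 0.48 to 1.06, and only the Long estimates at 36, 48 and 72 h, from 1.07 to 1.43, are called.

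The courses were also set beside each other. The non-exposed animals had 929, 716 and 955 TPM in the Long course, against 1131, 958 and 1063 TPM in the Short course, and every Long library was below every Short one. The log2 difference of -0.29 did not pass (95% interval -0.82 to 0.25, limma adjusted p = 0.603; 1.73% of transcripts called). At 12 h, the only time shared, the level was 1167, 1034 and 861 TPM in Long exposed animals, against 1782, 1096 and 2175 TPM in Short exposed animals. The ranges overlapped. The exposure effect differed by -0.39 on the log2 scale, Long minus Short, with a 95% interval of -1.15 to 0.37 (limma adjusted p = 0.883; 0.0414% of transcripts called). With Short non-exposed animals as the reference, a check chosen after the values were seen, the Long log2 fold changes were 0.78 at 36 h (limma adjusted p = 0.124), 1.15 at 48 h (limma adjusted p = 0.0184) and 1.13 at 72 h (limma adjusted p = 0.0118).

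Ordered by mean, the Short groups ran from 1 h through 3, 6, 2, 12, 5, 4 and 9 h down to non-exposed animals, and every exposed group overlapped its neighbour in that order. The lone break between neighbours was between 9 h and the non-exposed animals, 426 TPM apart in their means. The 4 and 12 h groups, though higher in mean than 9 h, overlapped the non-exposed libraries. The Long order was 48, 72, 36, 12 and 18 h, non-exposed, then 24 h. It had gaps without overlap between 36 and 12 h, 825 TPM apart, and between non-exposed animals and 24 h, 312 TPM apart.

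Across the 24 exposed Short libraries the level had no clear relation with hours after exposure (Pearson r = -0.30, permutation p = 0.156; Spearman rho = -0.37, permutation p = 0.0777; two-sided, 100000 resamples). Adjusted over 3 relations the values were 0.235 and 0.117. Leaving out the 2 libraries farthest from the median hour gave r = -0.20 (permutation p = 0.380). Within replicates 1, 2 and 3, r was -0.57, -0.49 and 0.09 over 8 libraries each. After median scaling r was -0.44 (permutation p = 0.0299).

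The 18 exposed Long libraries fell into a low set from 12 to 24 h, at 393 to 1167 TPM, and a high set from 36 to 72 h, at 1452 to 2888 TPM, so the relation planned over all 18 is not given. This division was chosen after the values were seen, and the p-values below do not account for that choice. Within the 9 early libraries the level went down with time (Pearson r = -0.79, two-sided exact permutation p = 0.00714; Spearman rho = -0.79, exact permutation p = 0.0214; adjusted over 3 relations 0.0214 and 0.0643). The means were 1021 TPM at 12 h, 962 TPM at 18 h and 555 TPM at 24 h, and the 12 and 18 h libraries overlapped. Without Long 12 h replicates 1 and 2, of those equally far from the median hour, r was -0.71 (exact permutation p = 0.0571, n = 7). Without Long 24 h replicate 1 it was r = -0.82 (exact permutation p = 0.0143, n = 8). Within the 9 late libraries r was 0.38 (exact permutation p = 0.316) and rho 0.21 (exact permutation p = 0.621; adjusted over 3 relations 0.316 and 0.621), and r was 0.35 without Long 72 h replicates 1 and 2 (exact permutation p = 0.479, n = 7).

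A further 2 genes carry an apolipoprotein D match, g231 and g13465. g231 matches the mouse protein and lies on another scaffold, BDGG01000001, from 954335 to 955228 on the minus strand (RvY_00321). Whether reads are shared between the 3 genes was not tested. g6328 was the most abundant of them, above g231 in 47 of 48 libraries and above g13465 in all 48.

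g231 was called in 1 of the 14 comparisons with non-exposed animals, at Long 72 h. There it had 1001, 777 and 790 TPM, against 347, 356 and 141 TPM in Long non-exposed animals, without overlap (log2 fold change 1.71, SE 0.45, limma adjusted p = 0.0233). That call was lost without Long non-exposed replicate 3 (adjusted p = 0.0938), Long 72 h replicate 1 (0.0932) or Long 72 h replicate 2 (0.0572) in limma. At 36 and 48 h its log2 fold changes were 0.94 and 1.43 (limma adjusted p = 0.302 and 0.0698). At Short 1 h it had 654, 611 and 665 TPM, against 549, 339 and 505 TPM in Short non-exposed animals, also without overlap but with a log2 fold change of 0.50 (limma adjusted p = 0.543). At the other Short times every group of g231 overlapped the non-exposed animals. Its mean was 0.72, 0.78 and 0.77 times theirs at 2, 4 and 6 h, 0.66 and 0.85 times theirs at 9 and 12 h, and 1.05 and 1.02 times theirs at 3 and 5 h, where the means of g6328 were 1.41 to 1.88 times those of non-exposed animals.

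At Long 24 h the 2 genes also differed in 1 library. In Long 24 h replicate 1 g231 had 529 TPM, above its 152 and 170 TPM in the other replicates, while g6328 was at its minimum of 393 TPM. This is the library that lists 792 abundant transcripts at 0. Over the Long groups the moderated F called g231 (F = 8.93, limma adjusted p = 0.00766) and did not call it over the Short groups (F = 1.54, limma adjusted p = 0.398).

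g13465 was the scarcest, at 27.5 to 320 TPM, and was not called in any of the 14 comparisons with non-exposed animals. It averaged 183 ± 29.2 TPM at Long 72 h and 84.3 ± 76.2 TPM in Long non-exposed animals (SD, n = 3 each; log2 fold change 1.49, limma adjusted p = 0.0650). In the non-exposed group its replicates ranged from 27.5 to 171 TPM, overlapping the exposed ones. Its highest value, 320 TPM, was in Long 18 h replicate 3, where g6328 was at 916 TPM.

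**Figure D3:**
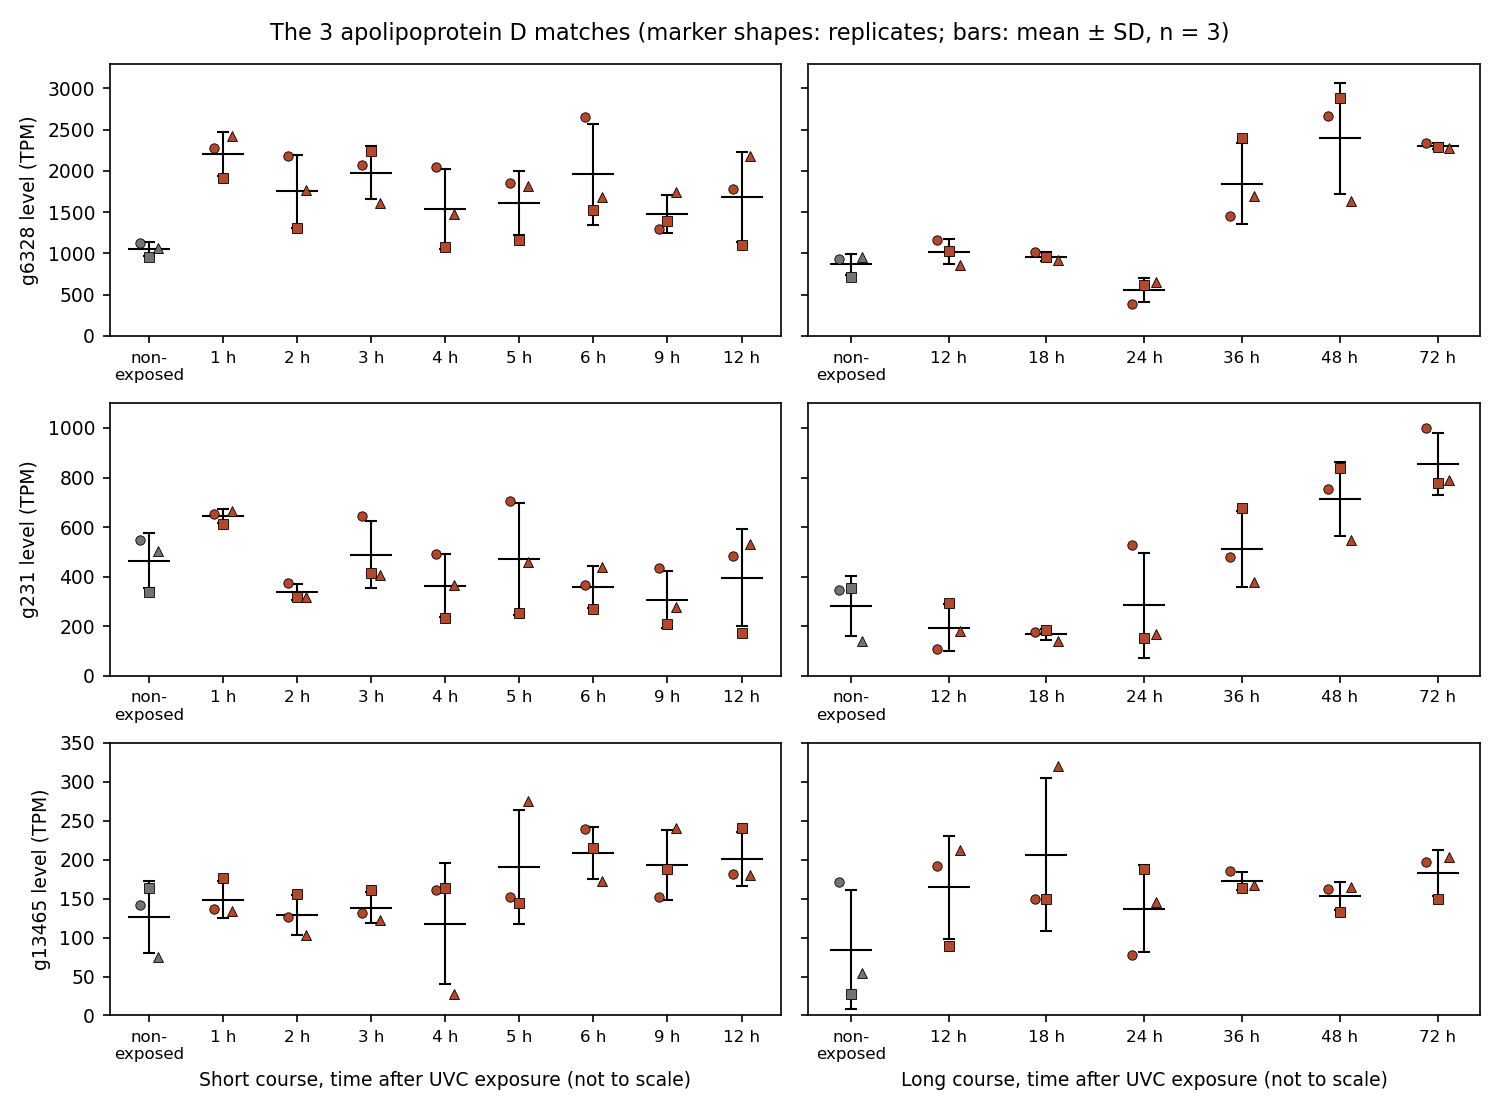
Levels in TPM (vertical axes, a scale for each row) of g6328, g231 and g13465 by group in the Short (left) and Long (right) courses; marker shapes give replicates, grey marks non-exposed animals, bars the mean ± SD of 3 libraries. g231 stands at 777 to 1001 TPM at Long 72 h, against 141 to 356 TPM in Long non-exposed animals, while g13465 stays below 321 TPM throughout.

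g6328 was then set among 16 lipid carriers and receptors. The list was taken largely from transcripts that the study lists as raised in these libraries, so its direction is not independent evidence. It holds secreted carriers, fatty acid-binding proteins, receptors and the secretory abundant heat soluble (SAHS) proteins, tardigrade proteins with a fatty acid-binding protein-like fold. At Long 36 h g6328 was the only one of the 16 called higher, where 0.811% of transcripts were called higher, and the list's median log2 fold change was 1.03 against -0.01 over all transcripts. At 48 h 2 were called higher (1.4% of all transcripts) and at 72 h 5 were (2.12%), the medians being 1.29 and 1.43 against -0.04 and -0.14. None was called lower at these times, where 0.579%, 3.72% and 8.53% of all transcripts were.

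The intracellular fatty acid-binding protein g12679, matched to myelin P2 protein, was the other carrier called at both 48 and 72 h. It had 1441, 1199 and 1348 TPM at 72 h, against 682, 367 and 469 TPM in Long non-exposed animals. The groups did not overlap, and the log2 fold change was 1.43 (SE 0.35, limma adjusted p = 0.0160). At 48 h it was 1.34 (limma adjusted p = 0.0335). The 72 h call was lost without Long non-exposed replicate 2 (adjusted p = 0.0658 in limma) or Long 72 h replicate 1 (0.0672). The 48 h call was lost without Long non-exposed replicate 2 or 3 (limma adjusted p = 0.122 and 0.0784) or Long 48 h replicate 1 or 2 (0.116 and 0.122). The 72 h calls also took in the SAHS transcripts g1624 (log2 fold change 1.28, limma adjusted p = 0.0456) and g1680 (4.66, adjusted p = 0.0317 in limma), the second with means of 63.0 TPM at 72 h and 3.64 TPM in non-exposed animals. g1680 was listed at 0 in 11 libraries, and its log2 fold change ran from 3.08 to 6.89 with the pseudocount. The g1624 call was lost whichever library was left out (limma adjusted p from 0.0923 to 0.134). The g1680 call was lost without replicate 1 or 2 of either group (from 0.0958 to 0.115).

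The large lipoproteins and an endocytic receptor were not called at 36, 48 or 72 h. Apolipophorins (g4803), the insect-type haemolymph lipid carriers, had their highest group mean at Long 36 h, with 410, 171 and 313 TPM against 143, 156 and 146 TPM in Long non-exposed animals. The groups did not overlap, and the log2 fold change of 0.91 did not pass (SE 0.51, limma adjusted p = 0.374). At 48 h g4803 averaged 88.1 TPM, with a log2 fold change of -0.98 (limma adjusted p = 0.266). At 72 h it averaged 60.6 TPM, and 148 TPM in Long non-exposed animals (log2 fold change -1.37, SE 0.51, limma adjusted p = 0.0876). Vitellogenin-6 (g772), a yolk lipoprotein, had its highest group mean at Long 36 h, 5954 TPM against 2420 TPM in non-exposed animals, with a log2 fold change of 1.24 that did not pass (limma adjusted p = 0.365). The endocytic sortilin-related receptor g883 averaged 27.1 TPM at 72 h and 76.3 TPM in non-exposed animals (log2 fold change -1.58, limma adjusted p = 0.0522).

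The other listed carriers had log2 fold changes at 72 h of 2.24 for the brain-type fatty acid-binding protein g610, 1.86 for the phosphatidylethanolamine-binding protein g8106 and 2.29 for the OV-16 antigen g2805. None passed (limma adjusted p = 0.171, 0.273 and 0.0649). The LDL receptor match g12770 was at 1.09 (limma adjusted p = 0.555). The SAHS transcript g1681 was at 2.12 (limma adjusted p = 0.0766). In the Short course no list member was called higher at any time, and the called ones were SAHS transcripts that were lower: g1675 at 9 h (log2 fold change -1.50, limma adjusted p = 0.00126) and 12 h (-1.30, limma adjusted p = 0.00430), and g1122 at 9 h (-1.29, limma adjusted p = 0.00662), where 0.844% and 1.14% of all transcripts were called lower at 9 and 12 h and 2.31% and 1.75% higher. g6328 averaged 1476 TPM at 9 h and 1051 TPM in non-exposed animals over the same libraries.

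A second list held 22 antioxidant transcripts, chosen because apolipoprotein D is known as an oxidative stress gene in other animals, and it too comes from the study's tables of raised transcripts. At Long 36, 48 and 72 h, 2, 4 and 4 of the 22 were called higher and none lower, where 0.811%, 1.4% and 2.12% of all transcripts were called higher and 0.579%, 3.72% and 8.53% lower. The list's median log2 fold changes were 0.92, 1.21 and 1.18, against -0.01, -0.04 and -0.14 over all transcripts. Only g456 and g6996 were called at all the times g6328 was. The Cu-Zn superoxide dismutase g456, which converts superoxide to hydrogen peroxide, had log2 fold changes of 1.51, 1.72 and 1.77 at 36, 48 and 72 h (limma adjusted p = 0.00465, 0.00124 and 0.00129). Peroxiredoxin-2 (g6996), which reduces hydrogen peroxide, had 1.19, 1.18 and 1.18 (limma adjusted p = 0.0115, 0.00649 and 0.00287), and its 36 h call was lost without Long 36 h replicate 2 (adjusted p = 0.0715). At Short 1 h 1 of the 22 was called higher, the superoxide dismutase g6658 (log2 fold change 1.14, limma adjusted p = 0.0466), where 0.223% of all transcripts were called higher and 0.935% lower, and the list median was 0.50 against -0.28 over all transcripts. Calls of higher levels also came at Short 5 h (2 of 22), Short 12 h (1) and Long 12 h (1), where g6328 was not called. At these times 3.04%, 2.9% and 0.811% of all transcripts were called in either direction.

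Because the Long animals were fed from 12 h, 12 digestive enzyme transcripts were followed as a further list, also drawn mainly from the study's tables of raised transcripts. At 36, 48 and 72 h, 5, 6 and 6 of them were called higher and none lower, beside the 0.811%, 1.4% and 2.12% of all transcripts called higher and the 0.579%, 3.72% and 8.53% called lower. The list's median log2 fold changes were 1.07, 1.09 and 0.99, against -0.01, -0.04 and -0.14 over all transcripts. In all, 4 were called at all 3 times. Of these, chymotrypsinogen B (g629) and chymotrypsinogen A (g631), protein-cutting enzyme precursors, had log2 fold changes of 1.41 and 1.54 at 72 h (limma adjusted p = 0.00702 and 0.00501), and the starch-cutting amylase g3301 had 1.52 (limma adjusted p = 0.00145). These 72 h calls held with any 1 of their 6 libraries left out. At 36 h the g629 call was lost without 5 of the 6 libraries, all but Long non-exposed replicate 3 (limma adjusted p from 0.0525 to 0.119). The g631 call at 36 h was lost without Long non-exposed replicate 2 or any 36 h library (0.0622 to 0.101 in limma), and that of g3301 without Long non-exposed replicate 2 or Long 36 h replicate 1 or 2 (0.0829 to 0.119 in limma). At 48 h the g629 call was lost without replicate 1 or 2 of either group (limma adjusted p from 0.0514 to 0.104) and that of g631 without Long 48 h replicate 1 (0.0565). Amylase and chymotrypsinogen B were also among the 14 transcripts called between 24 and 36 h, with log2 fold changes of 1.30 and 1.59 (limma adjusted p = 0.0199 and 0.0397). In the Short course 1 list member was called higher, the maltase-glucoamylase g13107 at 9 h (log2 fold change 1.11, limma adjusted p = 0.0173). There g6328 was not called and 2.31% of all transcripts were called higher.

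Summed over the 12 transcripts, digestive enzymes stood at 9040 to 9444 TPM at Long 36 h, 8914 to 9884 TPM at 48 h and 8934 to 10356 TPM at 72 h, against 3448 to 5118 TPM in Long non-exposed animals. In the Short course, where no food is described, the sum was 6776 to 7679 TPM at 1 h, against 4157 to 4610 TPM in Short non-exposed animals. Over the exposed Short groups its mean was 1.30 to 1.66 times that of non-exposed animals, and only the 5 h group overlapped them. At Long 18 h the sum was 5141 to 7933 TPM, above all non-exposed libraries, while g6328 overlapped them. Over the libraries the log2 level of g6328 and the log2 sum had r = 0.79 (n = 48), 0.80 in the Short course (n = 27) and 0.89 in the Long course (n = 21), given as a description since the points share libraries, groups and the TPM scale. The part of feeding in the level of g6328 was not tested.

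**Figure D4:**
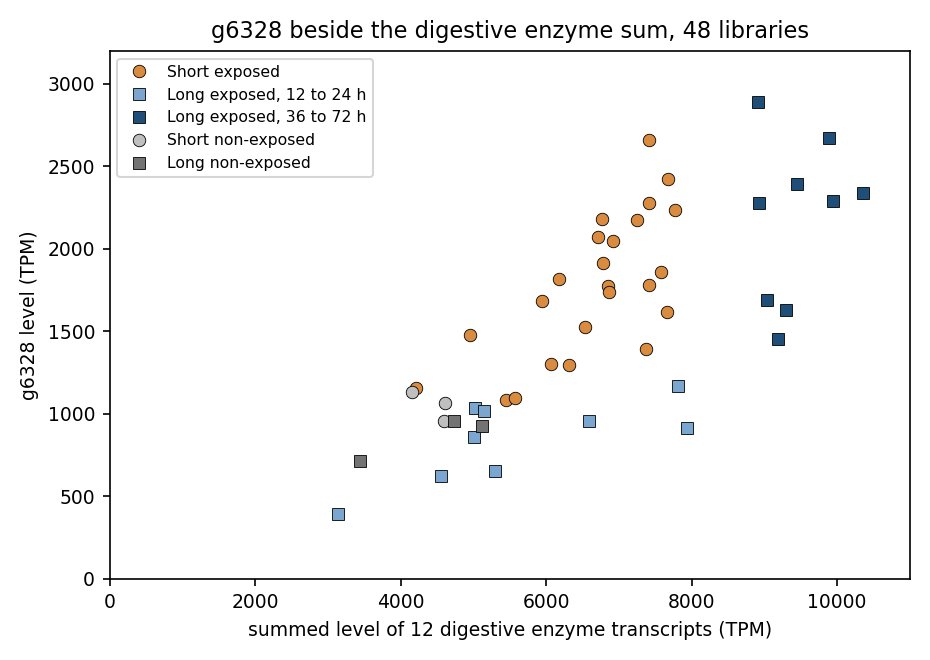
Level of g6328 in TPM (vertical axis) against the summed TPM of 12 digestive enzyme transcripts (horizontal axis), 1 point for each of the 48 libraries; circles are Short and squares Long libraries, with non-exposed animals in grey. The 9 Long libraries from 36 to 72 h sit at the right, from 8914 to 10356 TPM on the horizontal axis, and r is 0.79 over all libraries on the log2 scale.

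Other measures also differed between the late Long libraries and Long non-exposed animals. The 4 muscle marker transcripts summed to 1041 to 1214 TPM at 36 h, 1267 to 1380 TPM at 48 h and 1096 to 1444 TPM at 72 h, against 220 to 702 TPM in Long non-exposed animals. The members were not alike. At 72 h tropomyosin averaged 926 TPM and troponin T 217 TPM, against 332 and 12.0 TPM in Long non-exposed animals. The myosin heavy chain transcripts averaged 64.0 TPM (g5252.t1) and 60.9 TPM (g5252.t2) at 72 h, against 57.1 and 95.5 TPM. None of the 4 was called at any of the 14 times, and 1 of them was listed at 0 in a non-exposed library. The number of abundant transcripts listed at 0 was 163 to 255 in the Long non-exposed libraries and 8 to 63 in those from 36 to 72 h, and over the 21 Long libraries the log2 level of g6328 had r = -0.60 with it. Without the libraries with most zeros the log2 fold changes were 0.94 at 36 h (limma adjusted p = 0.0485, no longer beyond the fold threshold), 1.30 at 48 h (limma adjusted p = 0.00814) and 1.29 at 72 h (limma adjusted p = 0.00681). The reference was then 2 Long non-exposed libraries, which still listed 166 and 163 abundant transcripts at 0. That difference from the late libraries therefore remained in this check. The part of the muscle markers in the result was not tested.

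The transcripts whose profile was most like that of g6328 were found by Pearson r over the 16 group means of log2(TPM + 1), among 8880 others averaging at least 10 TPM. The closest was g12679, the myelin P2-type fatty acid-binding protein described above (r = 0.97, with 0.96 over 9 Short and 0.98 over 7 Long groups). The next was g11193, a match to the zinc metalloproteinase nas-14 of *Caenorhabditis elegans*, an astacin-type protease (r = 0.96, 0.93 Short and 0.97 Long). The remaining ones have no name in the sources used here or are hypothetical: g300 (r = 0.95, 0.74 Short and 0.99 Long), g12680 (r = 0.94, 0.93 Short and 0.96 Long) and g297 (r = 0.93, 0.82 Short and 0.98 Long). These group means share libraries, and Long 24 h replicate 1 was the lowest library of its group for each, so the values are a description.

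**Figure D5:**
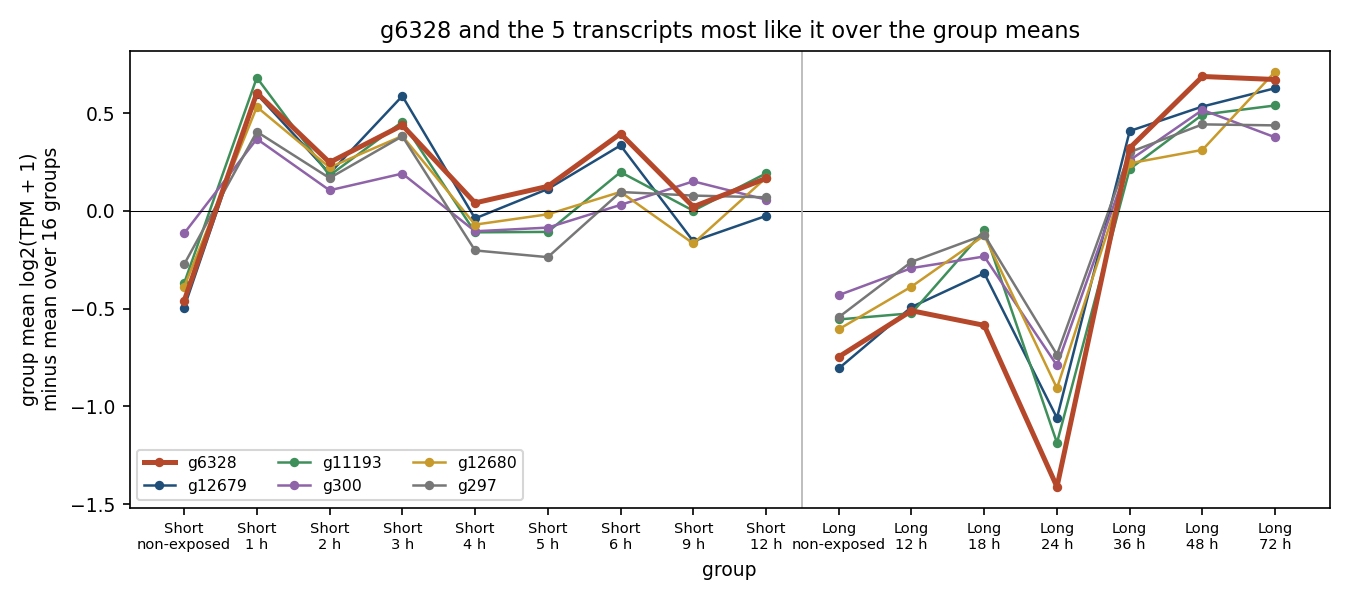
Group mean of log2(TPM + 1) minus the transcript's mean over 16 groups (vertical axis) for g6328 (thick line) and the 5 transcripts with the highest Pearson r to it, by group along the Short and then the Long course. All 6 lines are low in the non-exposed groups and lowest at Long 24 h, and the r values run from 0.93 to 0.97.

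The other apolipoprotein D genes were less alike, with r = 0.77 for g231 (0.32 over Short and 0.85 over Long groups) and r = 0.39 for g13465 (0.28 and 0.44). The most alike antioxidant was the glutathione S-transferase g4017, a detoxifying enzyme, with r = 0.92 (0.92 over Short and 0.97 over Long groups). The most alike digestive enzyme was amylase with r = 0.88 (0.83 and 0.98). Neither list was uniform. The lowest r was -0.38 among antioxidants, for the peroxiredoxin g5429 (0.55 over Short and -0.80 over Long groups). Among digestive enzymes it was -0.46, for the maltase-glucoamylase g4155 (-0.45 and -0.36). Apolipophorins and the sortilin-related receptor ran the other way, with r = -0.60 and r = -0.70. These r values are over 16 groups and carry no test.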

How the data were processed

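Transcript levels in 48 whole-animal libraries of 2 UVC time courses were used as deposited. According to the labels and methods, the authors quantified poly(A) single-end reads with kallisto on the *R. varieornatus* gene models and deposited TPM values. Counts were not used here, and the precision rests on 3 libraries a group. The study also gives sequencing statistics for each library, and these were not used here. The labels also name DESeq2, used by the authors on separate alignments. All columns mapped to labelled samples (0 left unused), and no pair of libraries was identical.

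Tests used limma 3.58.1 in R 4.3.3 on log2(TPM + 1), with a pseudocount of 1, transcripts averaging at least 1 TPM (12088 of 14532), all groups of a course in one fit without a replicate block, an intensity trend and Benjamini-Hochberg adjustment within a comparison. Comparisons between courses used one fit of all 16 groups. Fold changes are on this log2 scale, and with 3 libraries a group an exact permutation test cannot go below p = 0.1. Trends used 100000 permutations, or exact ones below 10 libraries, and treated the libraries as independent. The fits were checked on simulated data. Alternatives varied the pseudocount, filter, scaling, block, variance model, samples and fold threshold.

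Named transcripts were the lipid carriers, up to 3 antioxidants and 3 digestive enzymes called at the same times as g6328 (the first 3 of the 4 tied digestive enzymes in list order), and the 5 most alike. Described after their values were seen were g6658, g1675, g1122, g4017, g5429, g4155 and g13107. The gene and the lists were chosen with earlier results of these data known. No sequence of g6328 was used here.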

Additional observations from a re-analysis of the deposited data

Results flagged for a closer look

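The change of g6328 between 24 and 36 h in the Long course stood out because the effects at these times ran in opposite directions from the non-exposed animals and the difference itself passed the test. All 3 libraries at 36 h lay above the Long non-exposed range and all 3 at 24 h lay below it. The log2 fold change, 36 h over 24 h, was 1.73 (SE 0.25, limma adjusted p = 0.0107), and it was 1.50 without Long 24 h replicate 1. The call was lost in a fit of these 2 groups alone (limma adjusted p = 0.276). Groups of 3 are too small for the test of a single outlying library used here, so none was run.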

How the results depend on the processing

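Over 237 recalculations of the g6328 results under the other settings, 221 kept their direction and their side of the threshold, and so did 120 of 126 with a library left out. The Long 72 h call held under every setting run. The Short 1 h comparison (1.06, not called) passed at 1.06 with a mean TPM of at least 5, robust variance moderation or the replicate block, at 1.36 with median scaling (0.81 and not called after quantile normalization), and at 1.06 without the libraries with many transcripts at 0. The Long 36 h call (1.07) was lost at 1.13 with median scaling, 0.85 with quantile normalization, 1.07 with the replicate block, 1.07 with only the 2 groups compared, 0.94 without the libraries with many transcripts at 0, 0.78 against Short non-exposed animals, and between 0.86 and 1.22 with a library left out. With only the 2 groups compared, the calls at Long 48 h (1.43) and between 24 and 36 h (1.73) were also lost, with limma adjusted p of 0.0604 and 0.276. That left 1 of 14 comparisons called, against 3 in the joint fit, and 2 were called after quantile normalization. Against Short non-exposed animals the uncalled Long values turned to -0.050 at 12 h and -0.12 at 18 h. The Short trend with time reached r = -0.44 with median scaling. The cause of these changes was not tested. The settings that left out libraries with many zeros or used Short non-exposed animals were chosen after seeing the data. Over all transcripts, same-numbered libraries did not deviate together between exposed and non-exposed groups (r from -0.15 to 0.12, 0 of 14 comparisons with every pair above 0.1) or between exposed groups of a course (r from -0.16 to 0.13, 0 of 43 pairs of groups), so the numbers were not taken as pairs. The replicate block changed no other g6328 call. For g6328 itself the library numbered 2 was the lowest in 6 of 8 Short exposed groups and in Short non-exposed animals. Whether its level follows a lot of animals shared by same-numbered libraries was not tested. Of 138 recalculations of other named transcripts with a library left out 37 lost a call, as did 24 of 253 under other settings. Depth behind the TPM was not used here, so low-level members limit what can be said.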
